A study of Mus musculus with 50 samples.

Results

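The genes described here are the cytochrome P450 genes of families 1, 2 and 3 in mouse liver, leaving out the Cyp2b genes. Members were chosen by name, as protein-coding genes whose symbol starts with Cyp followed by family number 1, 2 or 3, a letter and a digit. In the GENCODE annotation 55 genes match, and 38 of them are among the 12185 genes of the expression table. Of those, 34 had a mean of at least 1 and were tested. The other 4 members in the table, Cyp1a1, Cyp2g1, Cyp2c55 and Cyp2d11, had means between 0.638 and 0.994 and are given by value only. The 17 annotated members outside the table, which include Cyp1b1, Cyp2s1, Cyp2w1, Cyp3a16, Cyp3a41a and Cyp3a41b, are not analysed here.

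The samples were 50 liver libraries with 48 animal numbers, and each library is counted below as 1 liver. They came from male offspring of F1 mice from strain B6.A4 and B6, crossed to F1 mice from strain B6.A6 and B6. The offspring were labelled as adult F2 and described in the methods as N2 animals of 5 weeks fasted overnight. Each animal carried C57BL/6J (B6) sequence on every chromosome except that 1 copy of chromosome 4 and 1 copy of chromosome 6 could hold A/J segments. Genotypes were not used here, so all libraries form 1 group, and there was no treatment. Library titles carry 2 numbers, a library number and an animal number, and 4 libraries share an animal number with another (8 with 10, and 22 with 55). The members in the table lie on chromosomes 3, 4, 5, 7, 9, 15 and 19, so in this cross only the Cyp2j genes on chromosome 4 could differ in their own sequence.

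Values are normalized CPM, read counts scaled to a common library size, and they came out as whole reads of 11965594 to 29976557 per library. A count of 3 reads corresponded to between 0.0951 and 0.259 normalized CPM, a floor that covers counting error only. All 5 hepatocyte markers (Alb, Apoa1, Ttr, Cps1 and Tat) were in the table, with a summed level between 72910 and 117801. Both kidney markers, Umod and Kap, were outside the table. Of the intestine markers Fabp2 was in the table (36.2 to 98.9) and Vil1 was not. Of the pancreas markers Cela1 was in the table (3.24 to 9.75), and Prss2 and Cpa1 were not. Summed levels were between 186.6 and 318.7 for Kupffer, 119.8 and 173.6 for endothelial, 60.4 and 143.6 for stellate and 89.2 and 254.3 for erythroid markers. Bile duct and leukocyte markers summed to at most 3.19 and 10.99. In bulk liver, fewer cells of a type and less RNA per cell cannot be told apart. Whether separate libraries came from separate litters or cages is not given in the sources used here.

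P450 enzymes are haem proteins of the endoplasmic reticulum that insert an oxygen atom into lipophilic substrates, using electrons passed on by P450 oxidoreductase (Por). Families 1, 2 and 3 clear most drugs, toxins and plant compounds in the liver, and some also act on steroids, bile acids, fatty acids or vitamin D. Their genes respond to ligand-activated receptors, the aryl hydrocarbon receptor (Ahr) for family 1, CAR (Nr1i3) for families 2 and 3 and PXR (Nr1i2) above all for Cyp3a genes. In rodents many of them also differ by sex, because pulsatile growth hormone in mature males acts through STAT5B and BCL6 to keep male-type genes such as Cyp2d9 on and female-type genes such as Cyp2a4 and Cyp2c69 low. Members of a subfamily stand side by side in the genome and often have closely similar sequences.

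Start regions of 3 pairs of genes, each pair from 1 cluster, are shown so that the likeness of their promoters can be set beside the expression values that follow. Each is the 250 bases before the RefSeq start (build GRCm38.p6), written along the gene, with motif matches in capitals. For Cyp2d9 that start lies inside the longer GENCODE gene model. The regions of Cyp2a4, Cyp2a5, Cyp2c69 and, at the last base, Cyp2d10 also run past the GENCODE start of their genes.
Cyp2a4 (chr7:26306942-26307191, forward strand): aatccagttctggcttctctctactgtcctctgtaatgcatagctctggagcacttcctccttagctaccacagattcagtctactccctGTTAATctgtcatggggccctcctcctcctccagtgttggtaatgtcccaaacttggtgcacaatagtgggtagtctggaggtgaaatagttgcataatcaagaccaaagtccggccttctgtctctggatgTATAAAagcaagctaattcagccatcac
Cyp2a5 (chr7:26835089-26835338, forward strand): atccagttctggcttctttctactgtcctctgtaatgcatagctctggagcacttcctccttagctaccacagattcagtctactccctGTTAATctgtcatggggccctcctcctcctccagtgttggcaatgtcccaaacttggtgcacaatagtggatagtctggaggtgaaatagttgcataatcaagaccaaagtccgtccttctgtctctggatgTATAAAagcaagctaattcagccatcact
Cyp2c40 (chr19:39812815-39813064, reverse strand): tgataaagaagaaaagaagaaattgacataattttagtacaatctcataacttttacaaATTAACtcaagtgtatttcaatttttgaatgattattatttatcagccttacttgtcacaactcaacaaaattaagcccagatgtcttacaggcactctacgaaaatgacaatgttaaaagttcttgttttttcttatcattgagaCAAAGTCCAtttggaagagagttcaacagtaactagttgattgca
Cyp2c69 (chr19:39886770-39887019, reverse strand): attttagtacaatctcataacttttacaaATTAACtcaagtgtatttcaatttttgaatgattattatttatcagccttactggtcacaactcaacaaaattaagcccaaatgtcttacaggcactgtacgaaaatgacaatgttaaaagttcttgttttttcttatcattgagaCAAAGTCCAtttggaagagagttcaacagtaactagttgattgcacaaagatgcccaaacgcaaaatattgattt
Cyp2d9 (chr15:82452127-82452376, forward strand): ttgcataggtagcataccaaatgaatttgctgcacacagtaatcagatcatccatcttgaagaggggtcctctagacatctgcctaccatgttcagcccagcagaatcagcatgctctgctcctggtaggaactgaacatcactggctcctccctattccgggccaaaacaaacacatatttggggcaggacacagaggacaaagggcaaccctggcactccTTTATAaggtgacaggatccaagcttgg
Cyp2d10 (chr15:82407195-82407444, reverse strand): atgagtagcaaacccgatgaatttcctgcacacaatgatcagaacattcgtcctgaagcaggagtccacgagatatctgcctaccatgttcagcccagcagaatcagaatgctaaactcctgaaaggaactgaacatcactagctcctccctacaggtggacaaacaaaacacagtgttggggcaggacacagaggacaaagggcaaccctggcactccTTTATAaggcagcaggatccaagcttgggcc

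The Cyp2a4 and Cyp2a5 promoters were identical at 98.4% of aligned bases, and both hold GTTAAT, an HNF1 half-site, and TATAAA, the TATA box. The Cyp2c40 and Cyp2c69 promoters were identical at 98.6%, with the HNF1 half-site on the reverse strand (ATTAAC) and CAAAGTCCA, an HNF4 site. The Cyp2d9 and Cyp2d10 promoters were identical at 85.0% and share a TATA box on the reverse strand (TTTATA). Over the 33 members with a RefSeq promoter, searched on both strands, the TATA box was in 20 (60.6%), against 12.4% of 32851 promoters of the same length. The HNF1 half-site was in 6 (18.2%, against 6.43%), namely Cyp2a4, Cyp2a5, Cyp2c40, Cyp2c68, Cyp2c69 and Cyp2d26. The HNF4 site was in 6 (18.2%, against 0.384%), namely Cyp2c40, Cyp2c67, Cyp2c68, Cyp2c69, Cyp2c70 and Cyp3a11. Neighbouring genes with like promoters are counted separately in all these shares, so the members are not independent of each other. GCGTG, the core of the element that the Ahr complex binds, was in 3 (9.09%, against 28.2%), namely Cyp1a1, Cyp2c68 and Cyp2j9. The STAT motif TTCNNNGAA was in 0 of 33, against 7.02% of all. None of these motifs overlaps another in the printed sequences, and a match is a description of the letters only.

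The members held between 1.43% and 2.63% of all normalized reads in a library, with a median of 2.13%. Cyp3a11 and Cyp2e1 took 60.2% of that sum and ranked 17 and 18 among all genes by value, without regard to length. Cyp2e1, which oxidizes ethanol and acetone, stood at 6109 ± 1145 normalized CPM (SD, n = 50), with a lowest value of 3578, a median of 6128 and a highest of 8536. Cyp3a11, the main CYP3A enzyme of adult mouse liver, stood at 6404 ± 1450, with a lowest value of 1465, a median of 6407 and a highest of 9738. Per kilobase of annotated exon Cyp2e1 was the higher gene, at 2831 ± 531 against 1257 ± 284.7 normalized CPM per kb. On that scale their libraries overlapped only through the highest values of Cyp3a11 and the lowest of Cyp2e1. The exon length merges all annotated transcripts and was 5093 bases for Cyp3a11, against 2158 for Cyp2e1 and 2083 for Cyp3a25. The order of Cyp2e1 and Cyp3a11 per kb therefore depends on the annotation, and the length of the transcripts present was not tested. Cyp2d9, a testosterone hydroxylase of male liver, followed at 585 ± 169 per kb and Cyp2f2, which activates naphthalene, at 409 ± 60.8 per kb. Cyp3a25 (374 ± 54.2), Cyp2d26 (369 ± 39.6) and Cyp2d10 (366 ± 38.4 per kb) came next, and their means lay closer together than 1 SD of each.

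**Figure D1:**
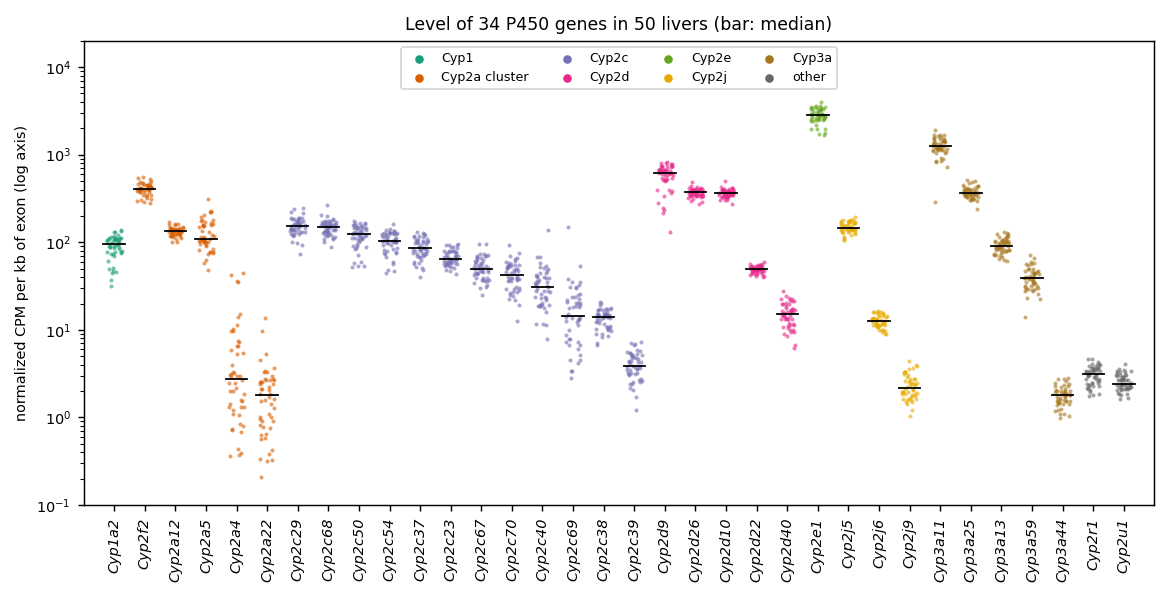
Normalized CPM per kb of exon (log axis) of the 34 members with a mean of at least 1, grouped by gene cluster, with 1 point per liver and a bar at the median of 50. Cyp2e1 and Cyp3a11 stand highest, Cyp2a4, Cyp2a22 and Cyp2c69 are the most widely spread, and 1 library lies far below the rest for Cyp3a11 (1465 normalized CPM against a next lowest of 3652).

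The members varied more between livers than most genes of the same level. Their median coefficient of variation (CV) was 24.9%, against 16.5% over all 11436 genes with a mean of at least 1. The CV of each member was set against the 200 genes nearest in rank of mean. Fewer genes stand above the highest members, which left 169 for Cyp2d9, 117 for Cyp2e1 and 116 for Cyp3a11. By this measure 15 of 34 lay above the 90th percentile of CV, a place that 10% of genes take, and 0 lay below the 10th. The 15 came from the Cyp2c cluster (7 of 12), the Cyp2a cluster (3 of 5), Cyp2d (2 of 5), and 1 each from Cyp1, Cyp2j and Cyp3a. Counting error gave over 10% of the variance for 3 of the 34 (Cyp3a44, 29.99%; Cyp2r1, 17.5%; Cyp2u1, 11.2%) and 0.02065% for Cyp3a11.

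Cyp2a4, a female-type steroid hydroxylase on chromosome 7 (26307169 to 26315088, forward strand, GRCm38), had the widest range of any member with a mean of at least 1. Its lowest value was 0.627, its median 4.82 and its highest 77.2 normalized CPM, a 123.1-fold range with a CV of 158%. Cyp2a22 in the same cluster (26931631 to 26939384, reverse strand) ran from 0.724 through a median of 6.17 to 46.7, a 64.5-fold range. Both were highest in library 24, and without it their CVs were 155% and 82.5%. Cyp2a5 (26835305 to 26843548), the coumarin and nicotine hydroxylase of the same cluster, ran only from 100.99 through 226.8 to 653, and in library 24 it was the second lowest, at 119.9. Cyp2a12 of this cluster was among the steadier members, at 461 ± 50.6 with a CV of 10.97%.

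On chromosome 19 the members Cyp2c67, Cyp2c68, Cyp2c40 and Cyp2c69 lie next to each other between 39608842 and 39886799. Cyp2c69 ran from 4.81 through a median of 24.7 to 255.7 normalized CPM and Cyp2c40 from 15.9 through 63.1 to 284.3. Both were highest in library 21, as was Cyp2c68 (463, against a next highest of 354). Without library 21 the CV of Cyp2c69 fell to 64.6% from 110% and that of Cyp2c40 to 44.5% from 60.5%. Cyp2c29, with the highest mean per kb of the Cyp2c genes (155 ± 34.9, against 150 ± 30.4 for Cyp2c68, less than 1 SD apart), ran from 226 through 468 to 758. Cyp2c70, the enzyme that makes muricholic bile acids in rodents, ran from 24.9 through 84.2 to 185.5. Cyp2c39, a retinoic acid hydroxylase, ran from 2.23 through 7.04 to 13.2.

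In the Cyp2d cluster on chromosome 15, Cyp2d9 ran from 349 through a median of 1662 to 2168 normalized CPM, so its spread lay mostly in a tail of low livers. Its neighbours Cyp2d10 (604 ± 63.4), Cyp2d26 (661 ± 71.0) and Cyp2d22 (193 ± 17.3) had CVs between 8.95% and 10.7%. Cyp2d40 was low and variable, from 11.3 through 27.2 to 49.96. Of the Cyp3a genes on chromosome 5, Cyp3a59 had the highest CV (28.7%) and ran from 28.2 through 77.9 to 142. Cyp3a13, which lies apart from the other Cyp3a genes, ran from 179 through 270 to 383, and the female-type Cyp3a44 from 1.92 through 3.54 to 5.53. Cyp1a2, the caffeine hydroxylase and the single tested family 1 gene, ran from 63.5 through 192.2 to 281. Cyp1a1, at a mean of 0.756, had 0 reads in 1 library and at most 3 in 6.

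The Cyp2j genes on chromosome 4 are the members in a segregating region. Cyp2j5, an arachidonic acid epoxygenase (96628773 to 96664154, reverse strand), ran from 247 through 338 to 452, with a CV of 14.1% that stood at the 54th percentile of its neighbours in level. Cyp2j6 ran from 32.7 through 46.1 to 58.5 and stood at the 77.5th percentile. Cyp2j9 ran from 3.48 through 7.23 to 14.5, at the 95th percentile, with 7.91% of its variance from counting. Among the members outside the clusters, Cyp2u1, a fatty acid hydroxylase labelled male-type in the list used, stood at 13.5 ± 2.86 and Cyp2r1, a vitamin D hydroxylase, at 6.50 ± 1.59.

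A few libraries held many of the extremes. Library 10 was the lowest for 7 members, among them Cyp3a11, Cyp3a25, Cyp3a59 and Cyp3a44. Libraries 15, 22 and 24 were each the lowest for 6 members, and libraries 21 and 44 each the highest for 6. Libraries with the same animal number differed in some variable members and lay close in others. Cyp3a11 was 5821 in library 8 and 1465 in library 10, and Cyp2a4 was 1.46 and 16.97. In libraries 22 and 55, Cyp2d9 was 742 and 1637, Cyp1a2 63.5 and 237.4 and Cyp2a4 24.3 and 3.53, whereas Cyp2c69 was 23.7 and 23.8 and Cyp2c40 62.4 and 63.8. In libraries 8 and 10 Cyp2c69 was 21.6 and 30.7 and Cyp2c39 3.97 and 10.1. Whether either pair came from 1 animal was not tested.

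Several members share long stretches of sequence, which limits how their reads can be told apart. Of the 31-base stretches in its transcripts, Cyp2a4 shares 55.9% with Cyp2a5, Cyp2c69 57.7% with Cyp2c40, Cyp2c67 55.5% and Cyp2c68 53.6% with Cyp2c40, and Cyp3a59 43.5% with Cyp3a25. How reads that fit several copies were counted is not given in the sources used here, so the split between these genes is uncertain. The Cyp2a4 value was between 0.185% and 64.4% of the Cyp2a5 value (median 1.75%), and the Cyp2c69 value between 18.3% and 89.9% of the Cyp2c40 value (median 40.5%).

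To describe which members moved together, the level of every gene was fitted in limma on the level of 1 predictor gene over the 50 livers, both as log2(normalized CPM + 0.5), with Benjamini-Hochberg adjustment over all genes tested. A slope of 1 means that a gene changed by the same fold as the predictor, and the pseudocount draws slopes of the lowest genes toward 0. The predictors Por, Nr1i3, Nr1i2, Ahr, Cyp2b10, Cyp2d9 and Cyp2j5 were planned, and Cyp2a4, Cyp2c69 and Cyp3a11 were added after their values were seen. These fits use the same livers and are not independent of each other.

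**Figure D2:**
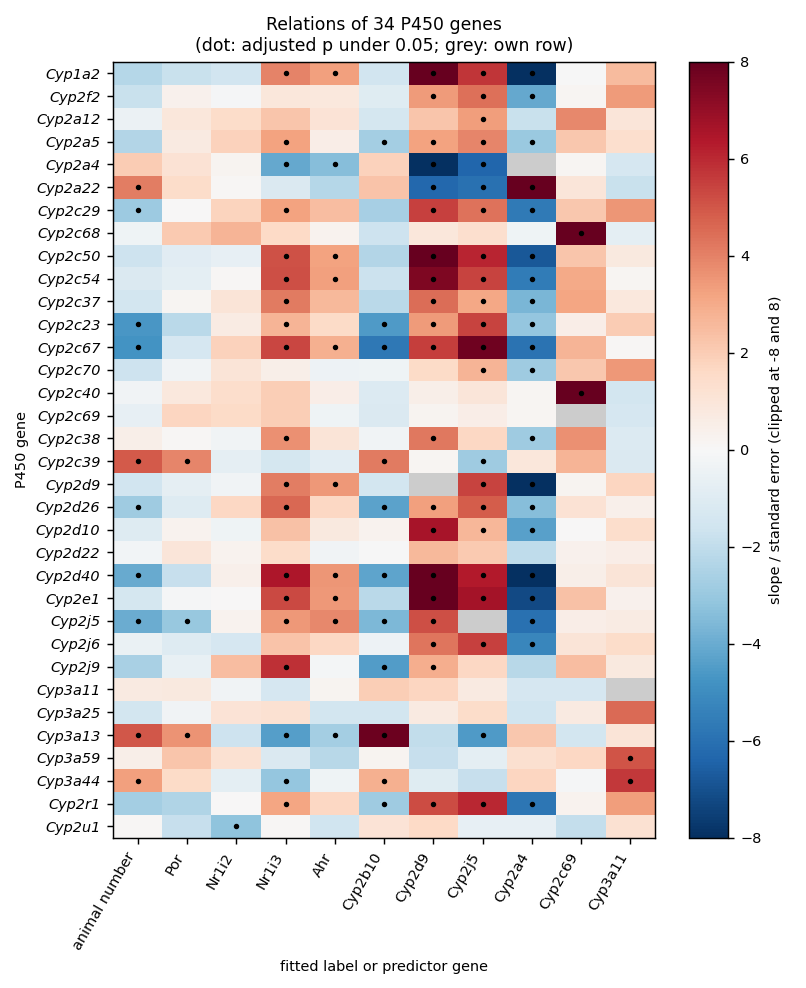
Slope divided by its standard error for 34 members (rows, by gene cluster) against animal number and 10 predictor genes (columns), clipped at both ends, with a dot where the limma adjusted p is under 0.05 and grey for a gene against itself. Red and blue columns of dots under Cyp2d9 and Cyp2a4 are of opposite sign, whereas Cyp2c69 and Cyp3a11 have 2 dots each.

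Livers with less Cyp2d9 had less of most other variable members and more Cyp2a4 and Cyp2a22. Of 33 members, 18 rose with Cyp2d9 and 2 fell, 20 in all, against 15% of all genes called (7.73% rising and 7.25% falling), and the median slope of the members was 0.19 against 0.00 over all genes. Cyp1a2 rose with a slope of 0.78 (SE 0.0581, adjusted p = 2.01e-15), Cyp2c50 with 0.66 (SE 0.0707, adjusted p = 3.91e-10) and Cyp2d40 with 0.67 (SE 0.0721, adjusted p = 3.98e-10). Cyp2e1 rose by less, with a slope of 0.41 (SE 0.0471, adjusted p = 2.86e-09). Cyp2a4 fell with a slope of -2.46 (SE 0.204, adjusted p = 9.25e-14) and Cyp2a22 with -1.33 (SE 0.211, adjusted p = 5.56e-06). Within libraries 1 to 30 and libraries 31 to 59 the Cyp2a4 slope was -2.38 and -2.55, and the Cyp1a2 slope 0.75 and 0.78.

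The 5 highest Cyp2a4 values lay in libraries 24 (77.2), 45 (74.2), 15 (62.6), 18 (60.6) and 57 (26.5), whose Cyp2d9 values ranked 1, 3, 2, 6 and 4 from the lowest. Library 24 also had the lowest sum of normalized values (886171), and without it 16 members passed, 14 rising and 2 falling, and the Cyp2a4 slope was -2.73 (adjusted p = 3.47e-13). After adjusting for the read share of the 10 most abundant genes, 14 members passed and the Cyp2a4 slope was -2.49.

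Of the members listed as sex-dependent and tested against Cyp2d9, only Cyp2a4 passed. Cyp2c40 (slope 0.09, SE 0.187, adjusted p = 0.793), Cyp2c69 (0.06, SE 0.277, adjusted p = 0.917) and Cyp3a44 (-0.08, SE 0.0807, adjusted p = 0.564), which are female-type, did not pass with Cyp2d9, nor did the male-type Cyp2u1 (0.12, SE 0.0722, adjusted p = 0.290). The 5 tested Cyp3a genes had slopes between -0.19 and 0.18, and none passed in limma or in edgeR, nor at an unadjusted p under 0.05 in limma. Cyp2a5 rose with Cyp2d9 (slope 0.41, SE 0.127, adjusted p = 0.0208), opposite in sign to Cyp2a4, whose promoter differs from its own at few positions. Without library 24 the adjusted p of Cyp2a5 was 0.107.

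With Cyp2a4 as the predictor, 1 of 33 members rose and 19 fell, against 17% of all genes called (8.23% rising and 8.81% falling). Cyp2a22 rose (slope 0.55, SE 0.0618, adjusted p = 1.55e-09). Cyp2d9 (-0.30, SE 0.0253, adjusted p = 2.34e-13), Cyp1a2 (-0.25, SE 0.0248, adjusted p = 2.80e-11) and Cyp2d40 (-0.23, SE 0.0263, adjusted p = 3.39e-09) fell with the smallest adjusted p. After adjusting for the read share of the 10 most abundant genes, 13 members passed in place of 20.

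**Figure D3:**
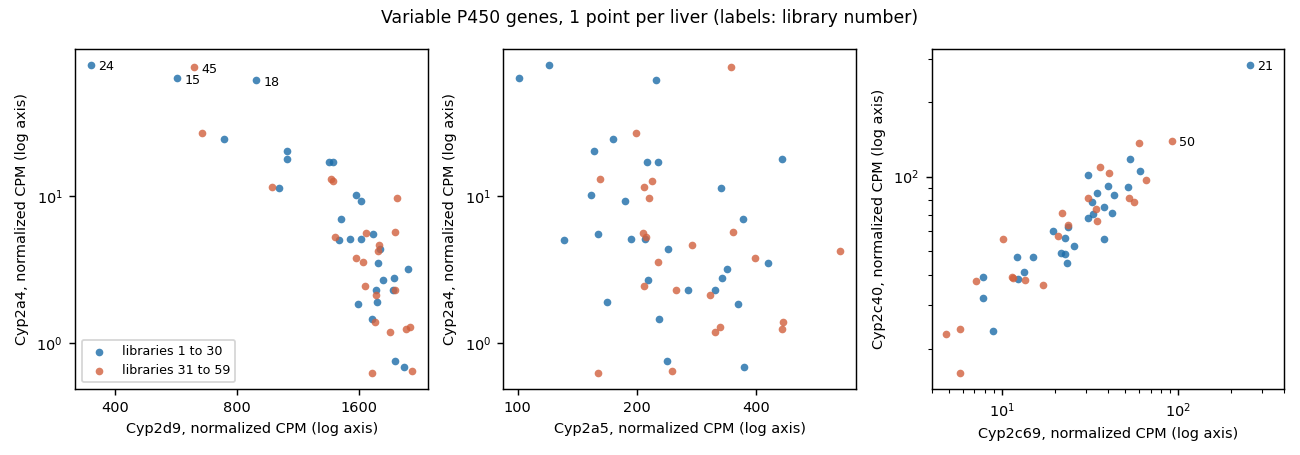
Levels of Cyp2a4 against Cyp2d9, Cyp2a4 against Cyp2a5, and Cyp2c40 against Cyp2c69 in normalized CPM (log axes), 1 point per liver, coloured by library numbers 1 to 30 or 31 to 59. Cyp2a4 falls as Cyp2d9 rises (slope -2.46). The Cyp2a4 value lies between 0.185% and 64.4% of the Cyp2a5 value. Cyp2c40 follows Cyp2c69 closely (slope 0.63), with library 21 at the top.

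Few genes passed the test with Cyp2c69, and 2 of them were members from the same stretch of chromosome 19. Of 33 members 2 passed, both rising, against 0.0262% of all genes called, which is 3 genes in all (the other, Lrrfip2, was named after its value was seen). Cyp2c40 had a slope of 0.63 (SE 0.0351, adjusted p = 9.18e-20) and Cyp2c68 of 0.22 (SE 0.0186, adjusted p = 1.09e-12). Without library 21 the slopes were 0.62 (adjusted p = 3.56e-17) and 0.21 (adjusted p = 2.80e-10), and within the lower and higher library numbers they were 0.63 and 0.63 for Cyp2c40 and 0.22 and 0.23 for Cyp2c68. Cyp2c67, from the same stretch, had a slope of 0.13 (SE 0.0494, adjusted p = 0.374). The part of shared sequence in these slopes was not tested.

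Few genes passed the test with Cyp3a11. Of 33 members 2 rose with it and 0 fell, against 0.035% of all genes called. Cyp3a44 had a slope of 0.48 (SE 0.0855, adjusted p = 0.00429) and Cyp3a59 of 0.59 (SE 0.117, adjusted p = 0.0198), whereas Cyp3a25 had 0.27 (SE 0.0602, adjusted p = 0.0645) and Cyp3a13 0.10 (SE 0.0914, adjusted p = 0.756). Library 10 decides part of this. Without it the Cyp3a59 slope was 0.49 (adjusted p = 0.501), and Cyp3a44 alone passed (0.63, adjusted p = 0.0174). Within libraries 1 to 30 and 31 to 59 the Cyp3a44 slope was 0.39 and 0.87 and did not pass in either (adjusted p = 0.348 and 0.249).

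The fits on receptor genes used their mRNA level, and receptor activity was not measured. Among the xenobiotic receptors, Nr1i3 (169 ± 47.3) had the most related members. 16 of 34 rose with it and 3 fell, against 18.2% of all genes called (9.95% rising and 8.25% falling). Cyp2d40 (slope 0.81, SE 0.125, adjusted p = 1.08e-05), Cyp2j9 (0.72, SE 0.122, adjusted p = 4.85e-05) and Cyp2c67 (0.65, SE 0.121, adjusted p = 0.000168) rose with the smallest adjusted p. Cyp3a13 (-0.37, SE 0.0847, adjusted p = 0.00139), Cyp2a4 (-2.04, SE 0.496, adjusted p = 0.00288) and Cyp3a44 (-0.33, SE 0.107, adjusted p = 0.0235) fell. The Cyp2c genes gave 7 of 12 rising and the Cyp2d genes 3 of 5. After adjusting for the read share of the 10 most abundant genes 9 members passed, and Cyp2a4 (-1.43, adjusted p = 0.0856) and Cyp3a44 (adjusted p = 0.0879) no longer did. Cyp3a44 also missed the threshold without libraries 8, 10, 22 and 55 (adjusted p = 0.0511). In libraries 1 to 30 the Cyp2d40 slope was 1.11 and the Cyp3a13 slope -0.61, and in libraries 31 to 59 they were 0.64 and 0.012.

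Nr1i2 (61.7 ± 10.05), the receptor best known for Cyp3a genes, gave 1 member of 34, against 9.15% of all genes called (4.4% rising and 4.75% falling). Cyp2u1 fell (slope -0.51, SE 0.161, adjusted p = 0.0337), and without libraries 8, 10, 22 and 55 its adjusted p was 0.111. In that setting 1 member passed as well, but a rising one, Cyp2j9 (0.84, SE 0.263, adjusted p = 0.0438, named after its value was seen). The median slope of the 34 members was then 0.18 against 0.04 over all 50 libraries, with 9 members against 3 at an unadjusted p under 0.05. Cyp3a11 had a slope of -0.08 on Nr1i2 (SE 0.249, adjusted p = 0.880).

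Ahr (28.7 ± 7.86) gave 8 rising and 2 falling members, 10 of 34 in all, against 19.5% of all genes called (11.6% rising and 7.86% falling). With fewer samples, 1 member and 736 genes passed within libraries 1 to 30, and 0 members and 57 genes within libraries 31 to 59. The 3 rising members with the smallest adjusted p were Cyp2j5 (0.23, SE 0.0601, adjusted p = 0.00523), Cyp2d40 (0.48, SE 0.134, adjusted p = 0.00932) and Cyp2e1 (0.29, SE 0.0842, adjusted p = 0.0108). The falling members were Cyp2a4 (-1.56, SE 0.457, adjusted p = 0.0127) and Cyp3a13 (-0.22, SE 0.0825, adjusted p = 0.0492). The Cyp3a13 call held only with library run as a covariate (adjusted p = 0.0477) and without library 21 (0.0457), and in the other alternatives on the 2 runs together its adjusted p lay between 0.0502 and 0.0802. Cyp1a2, whose gene the receptor is known to activate, had a slope of 0.46 (SE 0.142, adjusted p = 0.0165), with 0.49 and 0.22 within libraries 1 to 30 and 31 to 59.

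Cyp2b10 is a P450 outside the chosen genes that CAR is known to induce, and it ran from 1.85 through a median of 17.4 to 118. 3 of 34 members rose with it and 8 fell, against 17.9% of all genes called (8.86% rising and 9.04% falling). The rising members were Cyp3a13 (0.16, SE 0.0201, adjusted p = 3.93e-07), Cyp2c39 (0.19, SE 0.0466, adjusted p = 0.00268) and Cyp3a44 (0.09, SE 0.0326, adjusted p = 0.0415). Cyp2c67 (-0.20, SE 0.0354, adjusted p = 6.90e-05), Cyp2c23 (-0.12, SE 0.0259, adjusted p = 0.00125) and Cyp2j9 (-0.18, SE 0.0402, adjusted p = 0.00139) led the falling ones. Without library 10 the adjusted p of Cyp3a44 was 0.112. Within libraries 1 to 30 and 31 to 59 the Cyp3a13 slope was 0.18 and 0.11 and the Cyp2c67 slope -0.23 and -0.15. Nr1i3 itself fell with Cyp2b10 (-0.16, SE 0.0357, adjusted p = 0.00130).

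Por (566 ± 140), the electron donor of all these enzymes, gave 2 rising members and 1 falling, against 10.6% of all genes called (5.55% rising and 5.03% falling), a share close to that of the members. Cyp2c39 (0.67, SE 0.172, adjusted p = 0.00843) and Cyp3a13 (0.34, SE 0.0968, adjusted p = 0.0155) rose and Cyp2j5 fell (-0.23, SE 0.0771, adjusted p = 0.0423). Without libraries 8, 10, 22 and 55 only Cyp2c39 passed (adjusted p = 0.0257). Its slope was 0.60 within libraries 1 to 30 and 0.73 within libraries 31 to 59.

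Cyp2j5 was used as a predictor because it is a member on chromosome 4, which segregates in this cross. 18 of 33 members rose with it and 4 fell, against 27.1% of all genes called (13.8% rising and 13.3% falling). Cyp2c67 (slope 1.49, SE 0.191, adjusted p = 1.05e-07), Cyp2e1 (0.97, SE 0.145, adjusted p = 1.85e-06) and Cyp2d40 (1.499, SE 0.236, adjusted p = 4.40e-06) rose, and Cyp2a4 (-5.07, SE 0.8004, adjusted p = 4.69e-06), Cyp2a22 (-3.45, SE 0.580, adjusted p = 1.31e-05) and Cyp3a13 (-0.71, SE 0.157, adjusted p = 0.000616) fell. The Cyp2c67 slope was 1.57 within libraries 1 to 30 and 1.69 within libraries 31 to 59. The neighbour Cyp2j6 rose (0.67, SE 0.122, adjusted p = 4.46e-05) and Cyp2j9 had 0.47 (SE 0.287, adjusted p = 0.225). Of the genes within 10 Mb of Cyp2j5, 13 of 49 (26.5%) passed, against 28.6% of genes farther away on chromosome 4. The share was 32.9% on chromosome 6 and 26.8% on autosomes other than 4 and 6.

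The remaining genes of the pathway came from a list of P450 partners. Of 8 genes for electron transfer and haem, 4 rose with Cyp2d9 and 1 fell, where 7.73% of all genes rose and 7.25% fell. Cyb5b, a cytochrome b5 (slope 0.24, SE 0.0459, adjusted p = 0.000135), Cyb5r3, its reductase (0.18, SE 0.0370, adjusted p = 0.000290), Pgrmc1, which binds P450s (0.19, SE 0.0385, adjusted p = 0.000409), and Cyb5a rose. The haem-degrading enzyme Hmox1 fell (-0.41, SE 0.0601, adjusted p = 1.25e-06). Of the 6 receptor genes tested, 3 rose (Nr1i3, Ahr and Rxra). Of 10 liver factors 2 fell, a share near the 15% of all genes called, namely Cux2, which is female-type (-1.21, SE 0.203, adjusted p = 1.54e-05), and Trim24 (-0.21, SE 0.0666, adjusted p = 0.0244). Without library 24 the adjusted p of Trim24 was 0.159 and that of Rxra 0.0874. Bcl6, the male-type repressor, had a slope of 0.68 (SE 0.259, adjusted p = 0.0634) and Stat5b -0.01 (SE 0.0415, adjusted p = 0.887).

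The numbers in the titles were tested because they order the libraries and animals. What an animal number stands for is not given in the sources used here. By animal number, 4 of 34 members rose and 6 fell, against 14.2% of all genes called (7.49% rising and 6.73% falling). Per 100 animal numbers, Cyp3a13 rose by 0.31 on the log2 scale (SE 0.0626, adjusted p = 0.000853), Cyp2c39 by 0.56 (SE 0.114, adjusted p = 0.000942) and Cyp2a22 by 1.10 (SE 0.268, adjusted p = 0.00437). Cyp2c67 fell by 0.46 (SE 0.0963, adjusted p = 0.00116), Cyp2c23 by 0.30 (SE 0.0655, adjusted p = 0.00145) and Cyp2d40 by 0.45 (SE 0.113, adjusted p = 0.00530). The others were Cyp3a44, which rose, and Cyp2j5, Cyp2c29 and Cyp2d26, which fell. Without library 24 the adjusted p was 0.0611 for Cyp2c29 and 0.0568 for Cyp2d26. Cyp2b10 rose by 1.46 (SE 0.291, adjusted p = 0.000818) and Nr1i3 fell by 0.29 (SE 0.0995, adjusted p = 0.0415, and 0.0701 without libraries 8, 10, 22 and 55). Cyp2d9 (-0.23, SE 0.150, adjusted p = 0.306) and Cyp2a4 (0.86, SE 0.420, adjusted p = 0.164) did not pass.

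**Figure D4:**
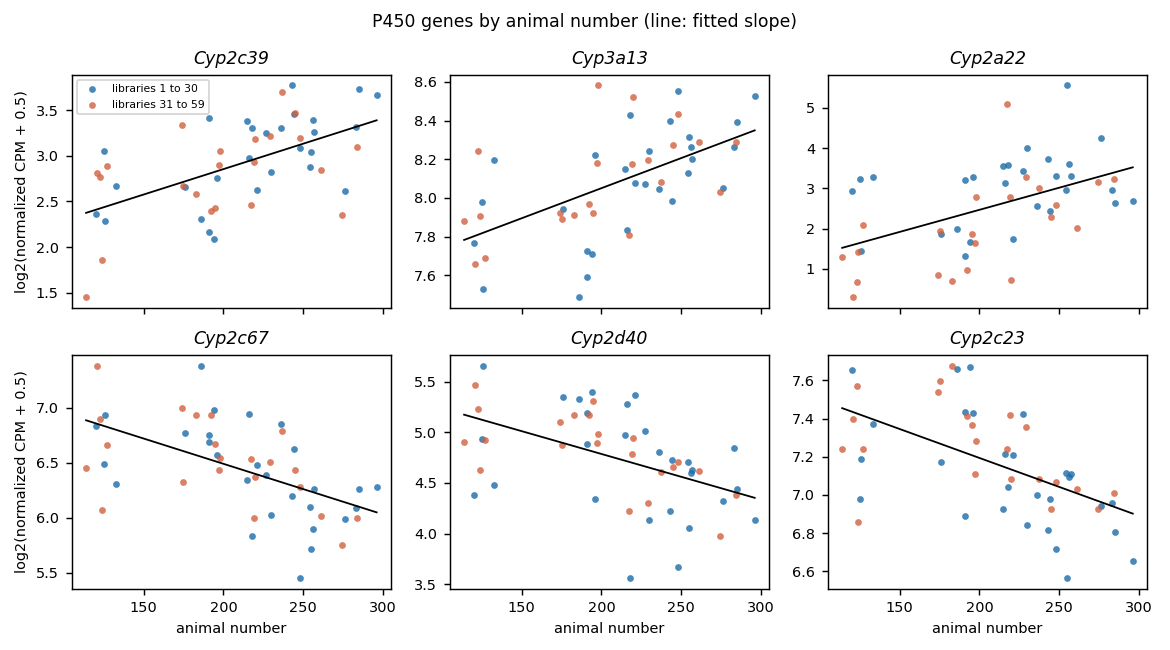
Level of 6 members as log2(normalized CPM + 0.5) against the animal number in the title, 1 point per library, coloured by library numbers 1 to 30 or 31 to 59, with the fitted line. The upper genes rise (Cyp2c39 by 0.56, Cyp3a13 by 0.31 and Cyp2a22 by 1.10 per 100 numbers) and the lower genes fall, with both colours along each line.

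Libraries 1 to 30 (28 libraries) and 31 to 59 (22 libraries) are runs in which animal numbers mostly ascend with library number (library 9 carries a lower number than library 8), and the labels do not call them batches. Between them 1 of 34 members passed, against 13.5% of all genes called (7.07% higher and 6.42% lower in libraries 31 to 59). Cyp2a22 was lower in libraries 31 to 59, at 5.34 ± 6.85 (SD, n = 22) against 9.32 ± 8.35 (SD, n = 28) and a log2 difference of -0.96 (SE 0.283, adjusted p = 0.0187), and by edgeR on the whole reads its adjusted p was 0.0834. The groups overlapped widely. The relation to animal number was also fitted within each run. Cyp2c39 rose by 0.59 and 0.49 per 100 numbers, Cyp3a13 by 0.37 and 0.27, Cyp2a22 by 0.63 and 1.33, and Cyp2c67 fell by 0.49 and 0.42, Cyp2c23 by 0.36 and 0.20 and Cyp2d40 by 0.43 and 0.46. A difference between the runs in these relations was called for 0 of 34 members in limma, against 0.035% of all genes called, with 2 members at an unadjusted p under 0.05 and 0 called by edgeR. The same test for each of the 10 predictors called 0 members in limma and 0 in edgeR, with between 0 and 3 at an unadjusted p under 0.05, and the largest share of all genes called was 0.00875%, for Nr1i2 and for Cyp2c69.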

How the data were processed

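Liver RNA from 50 libraries was measured by stranded poly(A) sequencing. Per the paper's methods and the submitters' processing notes, reads were trimmed and mapped with HISAT2 to the GRCm38.p5 build, assigned to genes by HTSeq 0.11.1, and normalized in edgeR after genes with few reads were dropped by the authors. The deposited values are a normalized signal, CPM of a scaled library size, and not plain counts. The tests had been planned for CPM and were kept on the log2 scale. Dividing by the value of 1 read gave whole reads for 100% of values within 0.01 of a read, 11965594 to 29976557 per library (median 13620584).

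Symbols and positions came from GENCODE M21 (GRCm38) and promoters from RefSeq (GRCm38.p6), which matched 33 of 38 members. Members, predictors and gene lists were chosen with earlier results of these data known. Relations were fitted with limma 3.58.1 (R 4.3.3) on log2(value + 0.5) for genes with a mean of at least 1, 2-sided, Benjamini-Hochberg over all genes tested, threshold 0.05. Named members are those with the highest mean or CV in each cluster, those on chromosome 4 or 6, the 3 smallest adjusted p in each direction of each fit and a list of sex-dependent genes. edgeR 4.0.16 (quasi-likelihood) on the whole reads was an alternative. Counting error was the mean times the value of 1 read, divided by the variance. On simulated data with 200 genes changed by a log2 slope of 1, limma recovered 200 of 200. It called 13 other genes for library runs, 11 for animal number and 7 for Cyp2d9. Recovery of slopes under 1 was not tested. p-values measure the spread between these samples. Genotypes were not used here.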

Additional observations from a re-analysis of the deposited data

How the results depend on the processing

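No paired analysis was possible because all libraries form 1 group. Of the called slopes of members, between 105 and 119 kept direction and call under another pseudocount (0.1), no filter, median-of-ratios scaling, counted reads or library run as a covariate, edgeR, or without library 10, 21, 24 or the libraries sharing an animal number. After adjusting for the read share of the 10 most abundant genes 87 did and 34 lost the call. Libraries 10 and 21, the covariates for library run and for the 10 highest genes, and the predictors Cyp2a4, Cyp2c69 and Cyp3a11 were chosen after seeing the data. In libraries 1 to 30 alone 42 calls were lost and in libraries 31 to 59 alone 98, with fewer samples, and 1 slope reversed (Cyp3a13 on Nr1i3, 0.012). All 228 recomputed means of members moved by less than 1 SD. Leaving out at most 4 of 50 libraries can hardly move a mean that far, so this count is not a test of robustness. Members called between library runs were 0 by edgeR and 2 with the 10-gene share, and all genes called fell to 889 with counted reads. Members called for Nr1i3 fell to 9 and for Cyp2a4 to 13 with the 10-gene share, which left 924 genes for Cyp2a4 and 861 for Cyp2d9. Without the libraries sharing an animal number, Por called 1 member and 527 genes, and Cyp3a11 1 member and 2 genes. The 1 member called for Nr1i2 changed there from the falling Cyp2u1 to the rising Cyp2j9. Cyp3a11 called 4 members and 10 genes with no filter, 1 member by edgeR, 1 without library 10, and 7 genes with the 10-gene share. All genes whose relation to animal number differed between runs went from 4 to 2 (without library 10, 21, 24 or shared numbers, or with counted reads), 1 (edgeR) or 0 (10-gene share). For Nr1i2 that count went from 1 to 0 (without library 24 or shared numbers, or with the 10-gene share) or 2 (counted reads), and for Cyp2c69 from 1 to 0 (without library 21, 24 or shared numbers, with counted reads, or by edgeR). Where no value here shows it, the cause was not tested. Depth limits Cyp3a44, Cyp2r1 and Cyp2u1, with over 10% of their variance from counting.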
